A study of Oryza sativa with 4 samples.

Results

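Beta-expansins were measured in the coleoptile of rice (Oryza sativa cv Nipponbare), the sheath around the shoot of a young grass seedling, grown from seed in air or without oxygen. The genes were all those named EXPB with a number in the gene table used, limited to genes with a probe set that reads a single gene and whose mean log2(intensity + 1) over the 4 arrays was at least 4. This gave 7 genes of 12291 tested: EXPB2, EXPB3, EXPB4, EXPB6, EXPB7, EXPB8 and EXPB11. In that table the EXPB names stand among the synonyms of locus numbers. Of 15 named beta-expansins, 4 more were dimmer than the limit (EXPB9, EXPB10, EXPB17 and EXPB18), and EXPB5, EXPB14, EXPB15 and EXPB16 had no single-gene probe set in the platform's annotation. Other numbered beta-expansins, EXPB12 among them, were not analysed here.

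The 4 arrays were Affymetrix Rice Genome GeneChips, 2 of aerobic and 2 of anoxic coleoptiles. The labels name no mutation or transgene in either group. Seeds of both were surface-sterilized with bleach and kept at 28 °C in darkness until 4 days old. The aerobic group, called the control, stood in air on filter paper. The anoxic group stood in an enclosed chamber kept free of oxygen by a palladium catalyst under nitrogen and hydrogen. The primary leaf was cut out of aerobic coleoptiles, while anoxic coleoptiles hold none, so the cutting went with the group. The labels do not say whether replicates came from separate cultures, so p-values reflect differences among these arrays only, in part perhaps technical ones. Array medians of the intensity lay between 7.36 and 7.55, replicates correlated with r = 0.973 in air and 0.968 in anoxia over tested probe sets, and arrays of different groups with 0.687 to 0.698.

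Expansins are secreted proteins that let plant cell walls yield to turgor at acid pH without cutting wall polymers. The beta class is large in grasses and acts on grass walls, which are rich in arabinoxylan, whereas alpha-expansins act on the cellulose and xyloglucan network. The grass coleoptile grows by cell elongation, and the rice coleoptile is known for elongating without oxygen. EXPB3, EXPB4, EXPB6 and EXPB11 are known from deepwater rice, where their transcripts are found in the growing internode. EXPB9 and EXPB10 belong to the pollen class of beta-expansins, the group of grass pollen allergens.

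The beta-expansins measured were lower without oxygen. In limma's fit, 5 of the 7 fell (adjusted p under 0.05 and a log2 difference of at least 1), none rose and 2 were not called. Of all genes tested, 18.0% were called lower and 15.9% higher by the same rule. The median log2 difference of the 7 was -1.68, against 0.03 over all genes tested. For 6 of the 7, both anoxic arrays lay below both aerobic arrays, as they did for 37.1% of all genes. These counts hold only genes that passed the limit on mean level. EXPB2 passed it through its aerobic arrays alone, so a difference was built into its choice. An exact 2-sided permutation test of 1 gene on these 4 arrays cannot go below p = 0.333, so the p-values depend on the variance that limma shares among probe sets. In whole coleoptiles, fewer cells that express a gene and less RNA per cell cannot be told apart.

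**Figure D1:**
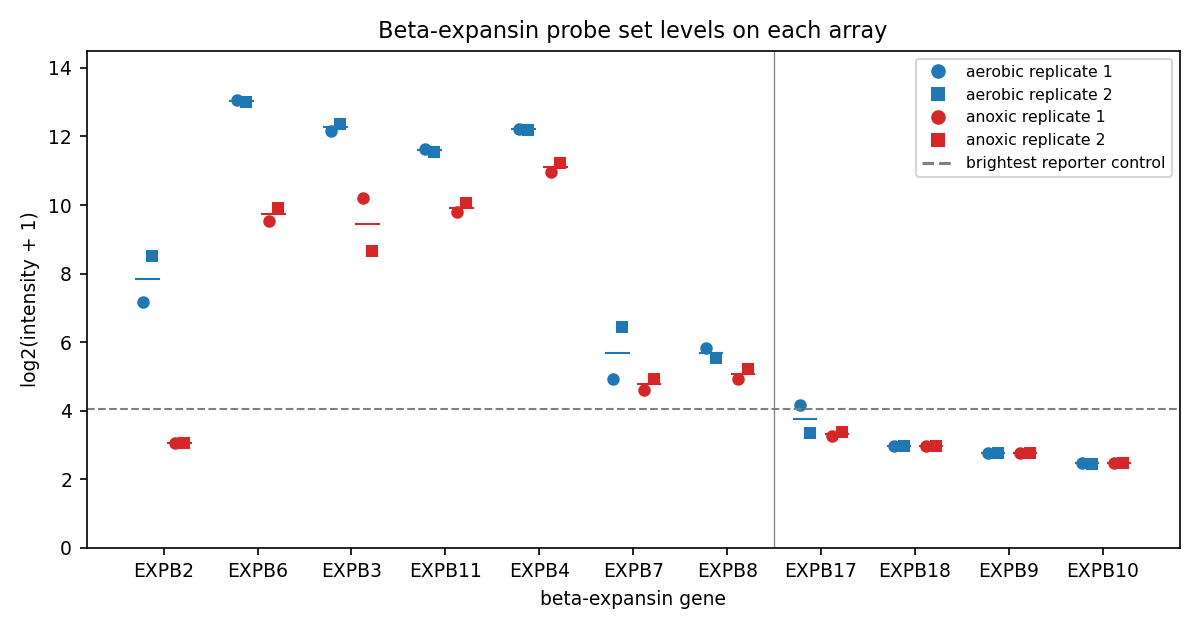
Level of each beta-expansin probe set as log2(intensity + 1) on each of the 4 arrays (circles for replicate 1, squares for replicate 2, short lines for group means). The dashed line is the highest group mean of any reporter control, 4.05. EXPB2 drops from 7.16 and 8.51 in air to below that line in anoxia, and the 4 genes right of the vertical line were below the limit on mean level.

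EXPB6 (LOC4349347) had the smallest adjusted p of the 7. It read a log2 level of 13.08 and 13.01 on the aerobic arrays and 9.53 and 9.92 on the anoxic arrays. Both anoxic arrays were far below both aerobic ones, and replicates differed by 0.06 in air and 0.39 in anoxia, the latter a wider gap than in 63.8% of tested probe sets. It fell by 3.32 ± 0.21 on the log2 scale (SE; limma, adjusted p = 0.00187), a 9.98-fold lower level. The change stayed between -3.52 and -3.12, and was called, with any 1 array left out. Of all tested probe sets, 3.39% fell further.

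EXPB2 (LOC4349348) changed from a clear signal to background. Its log2 levels were 7.16 and 8.51 in air and 3.07 and 3.06 in anoxia. Reporter control probe sets, which read sequences of transgenic plants, had a median of 2.74 in air and 2.75 in anoxia, and their highest group mean was 4.05. Set against 4.05, EXPB2 was at least 13.7-fold lower in anoxia (limma, adjusted p = 0.00456). The size rests on the aerobic arrays, which differed by 1.35 log2 units, a wider gap than in 97.8% of tested probe sets. Without aerobic replicate 2 the bound was 8.61-fold, and 21.9-fold when aerobic replicate 1 was left out instead. With no limit on mean level, when 57194 probe sets were tested, its call was lost (adjusted p = 0.0918).

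EXPB3 (LOC4349349) fell from levels that were alike in air to levels that differed in anoxia. It read 12.16 and 12.37 on the log2 scale in air, and 10.22 and 8.66 in anoxia. Both anoxic arrays were below both aerobic ones, but they lay 1.55 log2 units apart, more than in 98.6% of tested probe sets. The difference was -2.83 ± 0.56 log2 units (SE; limma, adjusted p = 0.0209). It was -3.60 without anoxic replicate 1 and -2.05 without anoxic replicate 2. The call was lost without aerobic replicate 1 (adjusted p = 0.137), without aerobic replicate 2 (0.152) and with no limit on mean level (0.232).

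EXPB11 (LOC4330213) fell by a smaller step. Its replicates differed by 0.09 log2 units in air and 0.28 in anoxia, wider gaps than in 23.3% and 50.8% of tested probe sets. Its log2 levels were 11.65 and 11.56 in air and 9.79 and 10.07 in anoxia, with no overlap between groups. The change was -1.68 ± 0.19 log2 units, or 3.19-fold lower (SE; limma, adjusted p = 0.00563). Its call was lost without aerobic replicate 1 (adjusted p = 0.0632), without aerobic replicate 2 (0.0592) and with no limit on mean level (0.0528), while the change itself stayed between -1.82 and -1.54 with any 1 array left out.

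EXPB4 (LOC4349350) changed least among the called genes. It read 12.23 and 12.18 log2 units in air and 10.97 and 11.23 in anoxia. The groups did not overlap, and the change of -1.10 ± 0.18 log2 units (SE; limma, adjusted p = 0.014) was 2.15-fold lower, close to the limit of 1 log2 unit. Leaving out aerobic replicate 1 (adjusted p = 0.0928) or aerobic replicate 2 (0.087) ended its call. So did leaving out anoxic replicate 1 (0.0551, with a change of -0.97) and testing with no limit on mean level (0.0749). The suffix of its probe set marks probes that match several similar transcripts, so signal from a near-identical gene is possible. The suffix of the EXPB3 probe set marks several transcripts of 1 gene.

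The 2 dimmest members were not called. EXPB8 (LOC4331298) read 5.83 and 5.53 log2 units in air and 4.93 and 5.23 in anoxia. These values did not overlap, and the difference was -0.60 ± 0.21 (SE; limma, adjusted p = 0.0921). EXPB7 (LOC4331300), the member nearest to the limit with a mean of 5.23, read 4.93 and 6.45 in air and 4.61 and 4.93 in anoxia. Aerobic replicate 1 and anoxic replicate 2 of EXPB7 were level, so its groups met. Its difference was -0.92 ± 0.55 (limma, adjusted p = 0.253), and it was -0.15 without aerobic replicate 2 and -1.68 without aerobic replicate 1. As for EXPB2, aerobic replicate 2 was the higher aerobic array of EXPB7, by 1.52 log2 units.

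**Figure D2:**
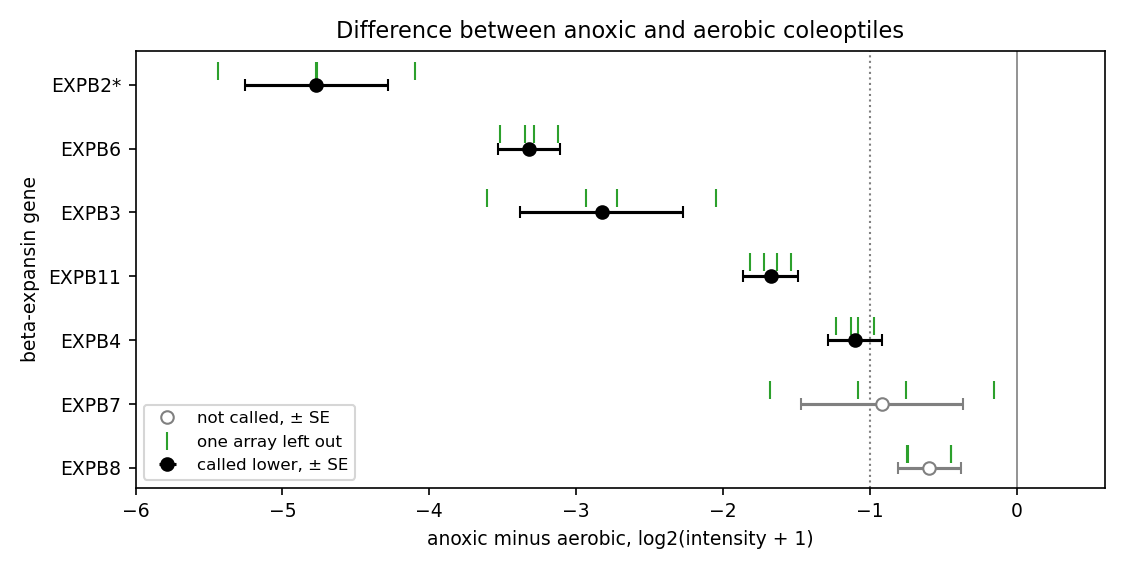
Anoxic minus aerobic difference of the 7 beta-expansins in log2(intensity + 1), with its SE from limma (filled, called lower; open, not called), and the difference with each array left out in turn (green ticks). The asterisk marks EXPB2, at background in anoxia, whose fitted difference is no exact size. The dotted line marks the limit of -1; leaving out 1 array moves EXPB3 between -3.60 and -2.05 and EXPB6 between -3.52 and -3.12.

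The size of the fall differed among the genes. As EXPB2 was at background in anoxia, it has only a bound, a log2 difference of at most -3.78 (-3.11 without aerobic replicate 2), so it was not ranked against EXPB6. Each anoxic array less each aerobic array gave differences of -3.55 to -3.09 log2 units for EXPB6. EXPB3, at -3.71 to -1.94, could not be told from EXPB6 by these ranges. EXPB11, at -1.86 to -1.49, stood apart from EXPB3 and from EXPB4, at -1.26 to -0.95. EXPB7, at -1.84 to 0.01, overlapped EXPB11, EXPB4 and EXPB8, and EXPB8 lay at -0.89 to -0.30. The same 4 arrays gave all these ranges, and no test between genes was run.

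The dim beta-expansins stayed below the highest group mean of the reporter controls, 4.05, except EXPB17 on aerobic replicate 1. EXPB17, the gene just under the limit with a mean of 3.53, read 4.16 and 3.36 log2 units in air and 3.25 and 3.37 in anoxia, so that 1 aerobic array stood above the rest. The pollen class genes EXPB9 and EXPB10 read 2.76 to 2.77 and 2.46 to 2.47 on the 4 arrays. EXPB18 lay between 2.97 and 2.98. These 4 genes were not tested, and at such levels a difference was not detectable.

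Called genes stood next to each other on the chromosome. In the RefSeq order of protein-coding genes, EXPB6, EXPB2, EXPB3 and EXPB4 follow one another on chromosome 10 with no gene between them, and all 4 fell. The limits given above for the EXPB2, EXPB3 and EXPB4 calls and for the EXPB4 probe set apply here too. EXPB8 and EXPB7 are neighbours on chromosome 3, and neither was called. EXPB11 on chromosome 2 lies next to EXPB14, which had no single-gene probe set. Of the 18 genes flanking these runs, 3 to each side, 7 were tested. The gene after EXPB4, LOC4349351, read 7.59 and 8.25 log2 units in air and 6.19 and 5.35 in anoxia and fell by 2.15 ± 0.40 (SE; limma, adjusted p = 0.0177). Its call ended when either aerobic array (adjusted p = 0.0852 without replicate 1 and 0.122 without replicate 2) or anoxic replicate 2 (0.0748) was left out. A gene on the other side of the run, LOC4349344, read 3.83 and 3.42 in air and 5.06 and 5.49 in anoxia and was at least 2.33-fold higher (adjusted p = 0.0121), a call that ended when either aerobic array (0.069 without replicate 1 and 0.0882 without replicate 2) or anoxic replicate 2 (0.0618) was left out. It passed the limit on mean level through its anoxic arrays alone, so a difference was built into its choice. With a pseudocount of 16 its difference was 0.97, under the fold limit. Its probe set has a suffix for probes that may also match other transcripts. The other 5 differed by -0.11 to 0.44 and were not called. Flanking genes were taken by position, after the values of the beta-expansins were known.

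**Figure D3:**
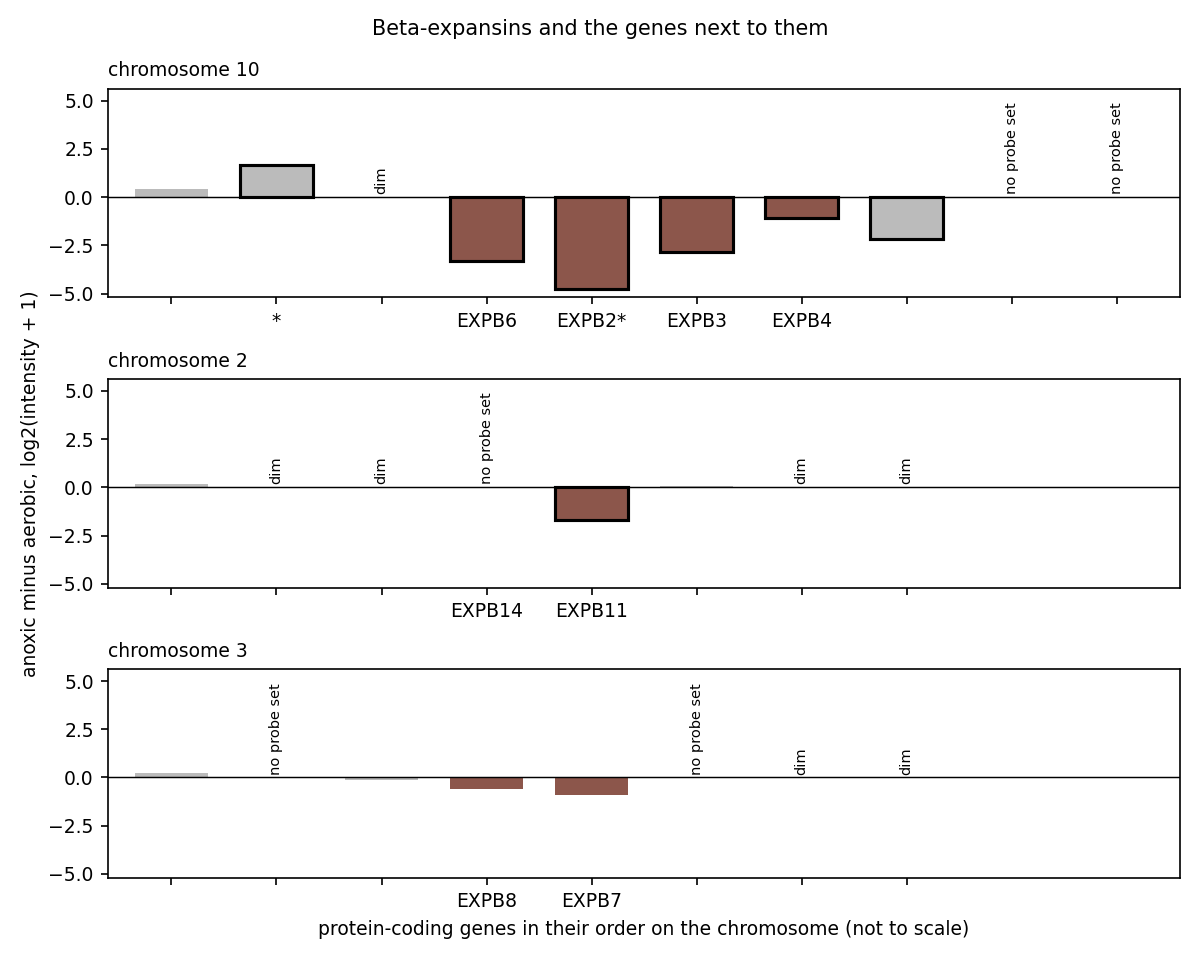
Anoxic minus aerobic difference in log2(intensity + 1) for beta-expansins (brown) and the 3 protein-coding genes on each side (grey), in their order on chromosomes 10, 2 and 3. Black outlines mark called genes; "dim" marks genes under the limit on mean level. On chromosome 10 the 4 adjacent beta-expansins all lie below 0; asterisks mark genes with 1 group at background, EXPB2 and LOC4349344, whose bars show the fitted difference, which is no exact size.

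Other expansin classes did not share this direction throughout. Of 6 tested alpha-expansins, 2 fell, 1 rose and 3 were not called, with a median of 0.18. The fall of EXPA1 was called just under the threshold (limma, adjusted p = 0.0489), with anoxic arrays 0.94 log2 units apart. Among those not called, EXPA6 was higher by 1.34 with no overlap between groups (limma, adjusted p = 0.0682). EXPA2 read 11.84 on both aerobic arrays and 8.88 and 8.61 on the anoxic arrays, a change of -3.10 ± 0.19 log2 units (SE; limma, adjusted p = 0.00169). EXPA7, on the brightest of its 3 probe sets, went the other way, from 5.72 and 5.98 in air to 9.42 and 8.74 in anoxia (limma, adjusted p = 0.00359). Its call was lost when either aerobic replicate was left out, and its other probe sets were not compared. Both tested expansin-like genes rose, from a class with no wall-loosening activity established. EXLA1 read 7.81 and 7.95 in air and 10.34 and 9.81 in anoxia (limma, adjusted p = 0.00561). EXLA2, on the brighter of its 2 probe sets, read 6.16 and 6.31 in air and 8.30 and 8.17 in anoxia (limma, adjusted p = 0.00327). That probe set has a suffix for probes that may also match other transcripts, so signal from another gene is possible. The other probe set of EXLA2 was not compared. Without aerobic replicate 1 or 2 the call of EXLA1 was lost (0.0695 and 0.0641). No test compared the classes, and direction within a class rests on few genes.

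Genes that build the wall polymers, and 1 gene that rearranges them, were lower or not called. Of 12 tested cellulose synthase-like genes 6 fell and 0 rose (median -0.90), and of 7 cellulose synthase genes 3 fell and 0 rose (median -0.95), against the 18.0% and 15.9% of all genes given above. CSLC2 and CESA7, both at background in anoxia, are among these falls, and like EXPB2 they passed the limit on mean level through their aerobic arrays alone. Setting them at their bounds left both medians as given. The bound of CSLC2 was 2.59-fold lower. That of CESA7 was 1.95-fold lower, which is under the limit of 1 log2 unit, so its fall would not be called at the bound. CSLF6, which makes the mixed-linkage glucan of grass walls, was read on the brightest of its 3 probe sets. It had 10.08 and 9.76 log2 units in air and 7.84 and 7.93 in anoxia (limma, adjusted p = 0.00403). CESA6, a subunit of the cellulose synthase of growing walls, read 10.84 and 10.67 in air and 9.01 and 8.96 in anoxia (adjusted p = 0.00408). XTH8, an enzyme that cuts and rejoins xyloglucan, was the only gene that the names of its list matched, so it does not stand for a class. It read 11.82 and 11.94 in air and 10.02 and 9.87 in anoxia (limma, adjusted p = 0.00348). For these 3 genes the groups did not overlap. Differences of the cellulose synthase-like genes ran from -2.03 to 0.96. The highest, CSLC9, had an adjusted p of 0.0368 in limma and lay just under the limit of 1 log2 unit. Cellulose synthase genes ran from -1.77 to 0.60, the highest being CESA2 (limma, adjusted p = 0.36).

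**Figure D4:**
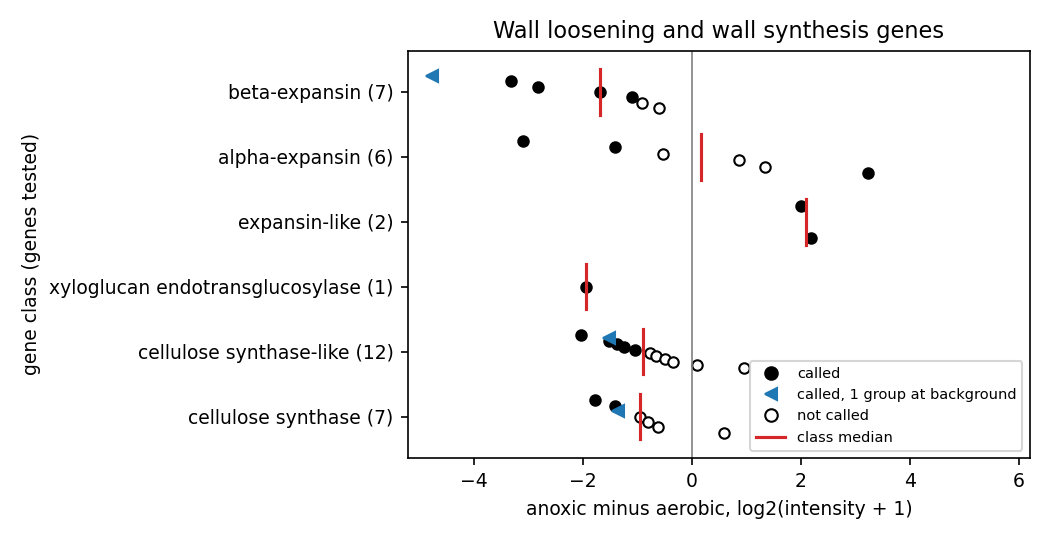
Anoxic minus aerobic difference in log2(intensity + 1) for each tested gene of 6 wall gene classes (filled, called; open, not called; red line, class median; the number tested in brackets). All 7 beta-expansins lie below 0, while alpha-expansins run from -3.10 to 3.23; blue triangles mark called genes with 1 group at background (EXPB2, CSLC2 and CESA7), whose points show the fitted difference, which is no exact size.

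Markers of other tissues were read beside these values. Of 4 leaf marker genes in the gene table, 3 had a probe set. Their summed intensity was 186 and 164 in air and 191 and 169 in anoxia. Most of it came from RBCS (7.42 and 7.21 log2 units in air, 7.47 and 7.27 in anoxia), read on the brightest of its 4 probe sets. That probe set has a suffix for probes that may also match other transcripts. CAB2R, a light-harvesting gene, and RBCS1 were at the level of the reporter controls on every array. Both groups were kept in darkness, and whether these genes report leaf tissue under that condition was not tested. Of 8 endosperm storage genes, 7 had a probe set, and their sum was higher in air, 451 and 418 against 194 and 188. This followed 1 gene, the globulin gene GLB (8.54 and 8.38 log2 units in air, 6.79 and 6.77 in anoxia), while the glutelin genes GLUA-1, GLUA-3, GLUB-4 and GLUB-5 and the prolamin gene PROLM25 were at the level of the reporters and GLUA-2 lay between 5.44 and 5.74. The part of endosperm RNA in the beta-expansin differences was not tested. No marker of the coleoptile itself was at hand to check the label.

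The genes most like each beta-expansin over the 4 arrays were looked up among 1832 tested genes with a name. Likeness was the Euclidean distance between log2 values, each less the gene's own mean. As these genes were chosen for this pattern, no test is given. Nearest to EXPB6 were OsIF1-1 (distance 0.12), DRR1 and PSK2, a gene for a phytosulfokine growth peptide. OsIF1-1 read 10.52 and 10.47 in air and 6.93 and 7.49 in anoxia. Nearest to EXPB2 were AT5 (0.19), SGR, which acts in chlorophyll breakdown, and HOS66; AT5 shared its higher second aerobic array, with 7.48 and 8.72 in air and 3.15 and 3.16 in anoxia. Nearest to EXPB3 were the chitinase gene CH16 (0.31), AP2-1 and the ABC transporter gene ABCG36, and CH16 too had its lowest value on anoxic replicate 2, 7.39 against 9.30. EXPB11 lay closest to the potassium transporter gene HAK23 (0.11), MSRB5 and CSTLP5. EXPB4 lay closest to the kinase gene CIPK3 (0.12), OsSPP2 and the auxin response factor ARF15. For EXPB7 they were the aquaporin gene OsTIP4;1 (0.21), AP3 and OsPEX11-1, and for EXPB8 OST1A (0.07), STAR2 and the gene named cellulase. Of these 21 places, 0 went to another expansin. Only 7 beta-expansins, 6 alpha-expansins and 2 expansin-like genes were tested, against 1832 named genes, so this count says nothing about likeness among expansins.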

How the data were processed

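The authors deposited linear, normalized intensities, 1 value for each probe set on each array, made with GCRMA per the submitters' processing notes. GCRMA corrects background by the base composition of probes and normalizes between arrays; its version was not given in the sources used here. Adding 1 before log2 understates differences of dim probe sets, and having 2 arrays a group limits the precision. Of 57381 probe sets, 187 controls were left out. Log2(intensity + 1) was tested with limma 3.58.1 in R 4.3.3 (lmFit, eBayes, 2-sided; 2 residual and 2.34 prior degrees of freedom) on the 18826 whose mean reached 4, with Benjamini-Hochberg adjustment. The steps were tested on simulated data. Genes came from the platform's annotation (22436 probe sets with 1 gene, 95 with several, the rest unnamed) and RefSeq assembly ASM3414082v1, used for names and gene order only. The brightest probe set stood for a gene, and each of the 7 beta-expansins had 1. Groups came from sample titles. The members and lists were chosen with earlier results of these data known. Named genes were every beta-expansin with a probe set, the largest called rise and fall of each list, and the 3 genes nearest to each member. Flanking genes, tissue markers and EXPA1, EXPA6, EXLA2, CSLC2, CSLC9, CESA2 and CESA7 were added. Lists were matched by symbol or synonym; haemoglobin genes with a GLB synonym were left out of the endosperm list. Alternatives covered pseudocount, limit on level, floor, normalization, variance model, replicate block and each array left out.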

Additional observations from a re-analysis of the deposited data

How the results depend on the processing

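All 7 beta-expansins stayed lower in anoxia in every setting that gave a value, but most settings could not reverse a direction. The limit on level, the variance model and the replicate block leave the fitted difference unchanged. For the 6 genes whose groups did not overlap, leaving out 1 array or changing the pseudocount or floor cannot reverse it. The number called is what moved. From 5 of 7 it went to 1 with no limit on mean level, which left EXPB6, and from 2 to 5 with 1 array left out; for the 5 genes other than EXPB2 and EXPB6 the number went from 3 to 0 with no limit and from 0 to 3 with 1 array left out. EXPB2, whose fitted difference of -4.77 is no exact size since it was at background in anoxia, was not called with no limit (adjusted p = 0.0918). With 1 array left out, EXPB6 ranged from -3.52 to -3.12. The lone array of a group was then assumed to vary like the others. Without an aerobic array, the spread of EXPB2 came only from its 2 anoxic arrays at background and from limma's shared variance. Its calls there, counted above, thus do not reflect the gap of 1.35 log2 units between its aerobic arrays. With a mean of at least 6, EXPB2, EXPB7 and EXPB8 were not tested, so that setting gives no number for the 7. Probe sets called higher numbered 3015, with no limit 738, with a mean of at least 6 1934, and with 1 array left out 692 to 2092. Those called lower numbered 3021, and in the same settings 971, 1895 and 1186 to 2262. Alpha-expansins called higher were 1, with no limit 0, under quantile normalization or the replicate block 2, and with 1 array left out 0 to 1. Those called lower were 2, and 1 with no limit, a floor of 16 or the replicate block, and 1 to 2 with 1 array left out. Expansin-like genes called higher were 2, 1 with no limit and 1 to 2 with 1 array left out. Fewer samples or more probe sets tested are part of these settings; other causes were not tested. Same-numbered arrays did not deviate together (r = -0.14), so the numbers were not used as pairs. With the replicate block 5 beta-expansins were called lower, with 2761 probe sets higher and 2795 lower. With the numbers crossed, an alternative chosen after seeing the data, these were 5, 3243 and 3224. No beta-expansin with a call had a second probe set to try.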

Other observations

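The 2 probe sets of EXPB17 differed in level on all 4 arrays, and 1 array stood apart in the brighter one only. The brighter one had an intensity of 16.8 on aerobic replicate 1 and of 8.53 to 9.32 on the other 3 arrays, while the other one had 4.49 to 4.59 on all 4.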
